A study of Mus musculus with 12 samples.

Results

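Genomic imprinting leaves a gene active mainly on the copy from 1 parent, and the genes considered here are 38 mouse genes listed for that property. They were chosen by name, with earlier results of these data already known. Of the 38, 35 are read by at least 1 probe set that carries no other gene symbol, over 94 of the 45037 probe sets tested, and *H19*, *Rtl1* and *Zrsr1* were not analysed here because they have no such probe set. A probe set is a group of short probes on an Affymetrix mouse 430 2.0 array, and its intensity, a relative value on a linear scale, stands for the RNA of 1 transcript or gene. The 35 genes are assigned here to the paternal allele (16 genes), to the maternal allele (17 genes) or to an allele that depends on the tissue (*Grb10* and *Gnas*). An assignment need not hold in every tissue: *Ube3a*, among the 17, is imprinted in neurons. The probes do not tell the 2 parental alleles apart, so an intensity is the sum of both, and no value below measures imprinting itself.

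The study compared *Terc*-/- (KO) with WT cells of the C57BL/6 background, all without further treatment, on 12 arrays with 2 for each genotype and day. *Terc* encodes the RNA template of telomerase, and the series describes the KO cells as generation G3/4, in which telomeres have shortened over several generations of breeding. Day 0 arrays hold undifferentiated ES cells, with KO lines F35 and A49 at passage 11 and WT lines N12 and N33 at passage 12, so that each day 0 array is 1 line. Day 8 and day 15 arrays hold cells that were left to differentiate as embryoid bodies, first for 4 days in hanging drops, without the cytokine LIF. The labels do not name the lines of these later arrays, although the paper speaks of its KO arrays as G4, the generation of line A49 (line F35 is G3), and of N33 as its WT line. Whether the replicates of a later day are separate lines or cultures of 1 line is therefore not settled here, and p-values measure only the spread between these samples. *Terc* itself was not analysed here because no probe set reads it alone, and the genotype rests on the labels. At day 0 the 12 marker genes of pluripotent cells, among them *Pou5f1*, *Nanog* and *Sox2*, summed to 72470 and 74510 in KO lines and 70410 and 69690 in WT lines, and none of them passed the test between genotypes that is used below. The paper kept its ES cells on feeder layers of mouse embryonic fibroblasts. Fibroblast marker genes summed at day 0 to 6150 in F35, 9443 in A49, 3364 in N12 and 5680 in N33, and none of them passed. Feeder RNA and RNA of the lines cannot be told apart.

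Imprinted genes lie in clusters, where a control region methylated on 1 parental copy sets which neighbours are read from which allele. In ES cells this methylation has to be kept through every division, by DNMT1, by the zinc finger protein ZFP57 and by their partners. Many of the genes act on growth: paternally expressed genes such as *Igf2* tend to promote it and maternally expressed genes such as *Igf2r*, *Cdkn1c* and *Phlda2* tend to restrain it. The Dlk1-Meg3 cluster on chromosome 12 is known for its variability among ES and iPS cell lines.

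Most of what follows lies in a few clusters, and the starts of 3 genes that lead them show the sequence context. The windows run from 250 bases before to 50 bases after the start of transcription in RefSeq (GRCm38.p6), and capitals mark the hexamer TGCCGC, the core that ZFP57 binds when it is methylated, or its reverse complement GCGGCA. *Mest* lies at chr6:30737800-30738099 on the plus strand, *Meg3* at chr12:109540746-109541045 on the plus strand and *Dlk1* at chr12:109452573-109452872 on the plus strand. The table holds 3 windows for *Mest* and 2 for *Meg3*. Of the *Mest* windows, 2 overlap almost entirely and hold the same matches, and the first of these is shown, beside the only *Meg3* window with a match.
Mest: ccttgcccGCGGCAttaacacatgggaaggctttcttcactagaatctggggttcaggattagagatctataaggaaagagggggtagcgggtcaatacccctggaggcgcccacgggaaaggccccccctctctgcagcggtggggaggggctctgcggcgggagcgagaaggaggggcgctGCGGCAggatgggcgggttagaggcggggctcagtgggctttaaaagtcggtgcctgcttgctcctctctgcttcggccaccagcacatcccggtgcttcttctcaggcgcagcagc
Meg3: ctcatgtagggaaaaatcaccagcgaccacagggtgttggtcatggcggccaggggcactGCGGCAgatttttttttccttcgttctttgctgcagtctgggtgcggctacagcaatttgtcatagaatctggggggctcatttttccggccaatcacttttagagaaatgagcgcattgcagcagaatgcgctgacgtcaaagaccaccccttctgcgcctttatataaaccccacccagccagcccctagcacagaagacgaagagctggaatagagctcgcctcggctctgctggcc
Dlk1: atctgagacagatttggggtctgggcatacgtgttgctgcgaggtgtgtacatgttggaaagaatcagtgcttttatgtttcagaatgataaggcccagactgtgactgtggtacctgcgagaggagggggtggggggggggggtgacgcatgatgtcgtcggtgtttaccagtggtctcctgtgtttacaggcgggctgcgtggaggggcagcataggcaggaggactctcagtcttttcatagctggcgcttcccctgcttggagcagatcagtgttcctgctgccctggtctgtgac
The *Mest* window holds the hexamer at 2 places, the *Meg3* window at 1 and the *Dlk1* window at 0. Over all members with an entry in the table, 30 genes with 49 start windows, 10 windows (20.4%) hold it, the overlapping *Mest* pair counted as 2, against 11.6% of the 32851 windows of the table. By gene, 9 of 30 members (30.0%) have it, against 13.1% of 27025 genes. Paternally expressed members have it in 6 of 24 windows and maternally expressed members in 3 of 19. The median ratio of observed to expected CpG was 0.584 in the member windows, against 0.384 over the table. A match is a description of these letters, and methylation or binding was not measured.

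Several of these transcripts are also hosts of miRNAs, which the arrays do not read. RefSeq places 1 miRNA hairpin within *Mest*, 1 within *Meg3*, 3 within *Rian* and 10 within *Mirg*. A mature miRNA from each of the 2 host genes that differed at day 8 is shown, with the seed, bases 2 to 8, in capitals. miR-335-5p lies within *Mest* at chr6:30741314-30741336, and miR-410-3p within *Mirg* at chr12:109743764-109743784, both on the plus strand.
mmu-miR-335-5p: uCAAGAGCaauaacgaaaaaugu
mmu-miR-410-3p: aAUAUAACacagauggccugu
The seeds differ, and the levels below are those of the host transcripts only.

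At day 0 none of the 35 genes differed between the genotypes after adjustment, at day 8 2 did, and at day 15 15 did, in a limma fit over all 12 arrays with p-values adjusted over all 45037 probe sets and a threshold of 0.05. Each gene takes the values of its brightest probe set. The later arrays hold RNA of mixed cells, so fewer cells of a type and less RNA per cell cannot be told apart. Over all 18193 genes read in this way, 0.033% passed at day 0, 1.54% at day 8 (0.77% higher and 0.77% lower in KO cells) and 17.1% at day 15. At day 8 *Mest* was lower and *Mirg* higher in KO cells. The share of members was 42.9% at day 15, with 11 genes lower and 4 higher in KO cells, where 8.31% of all genes were lower and 8.77% higher. The median log2 difference over the 35 genes was 0.05 at day 0, -0.30 at day 8 and -0.27 at day 15, beside 0.04, 0.03 and 0.04 over all genes. At an unadjusted p under 0.05 there were 3 member genes at day 0, 15 at day 8 and 18 at day 15, where 8.59%, 13.9% and 26.3% of all probe sets were.

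**Figure D1:**
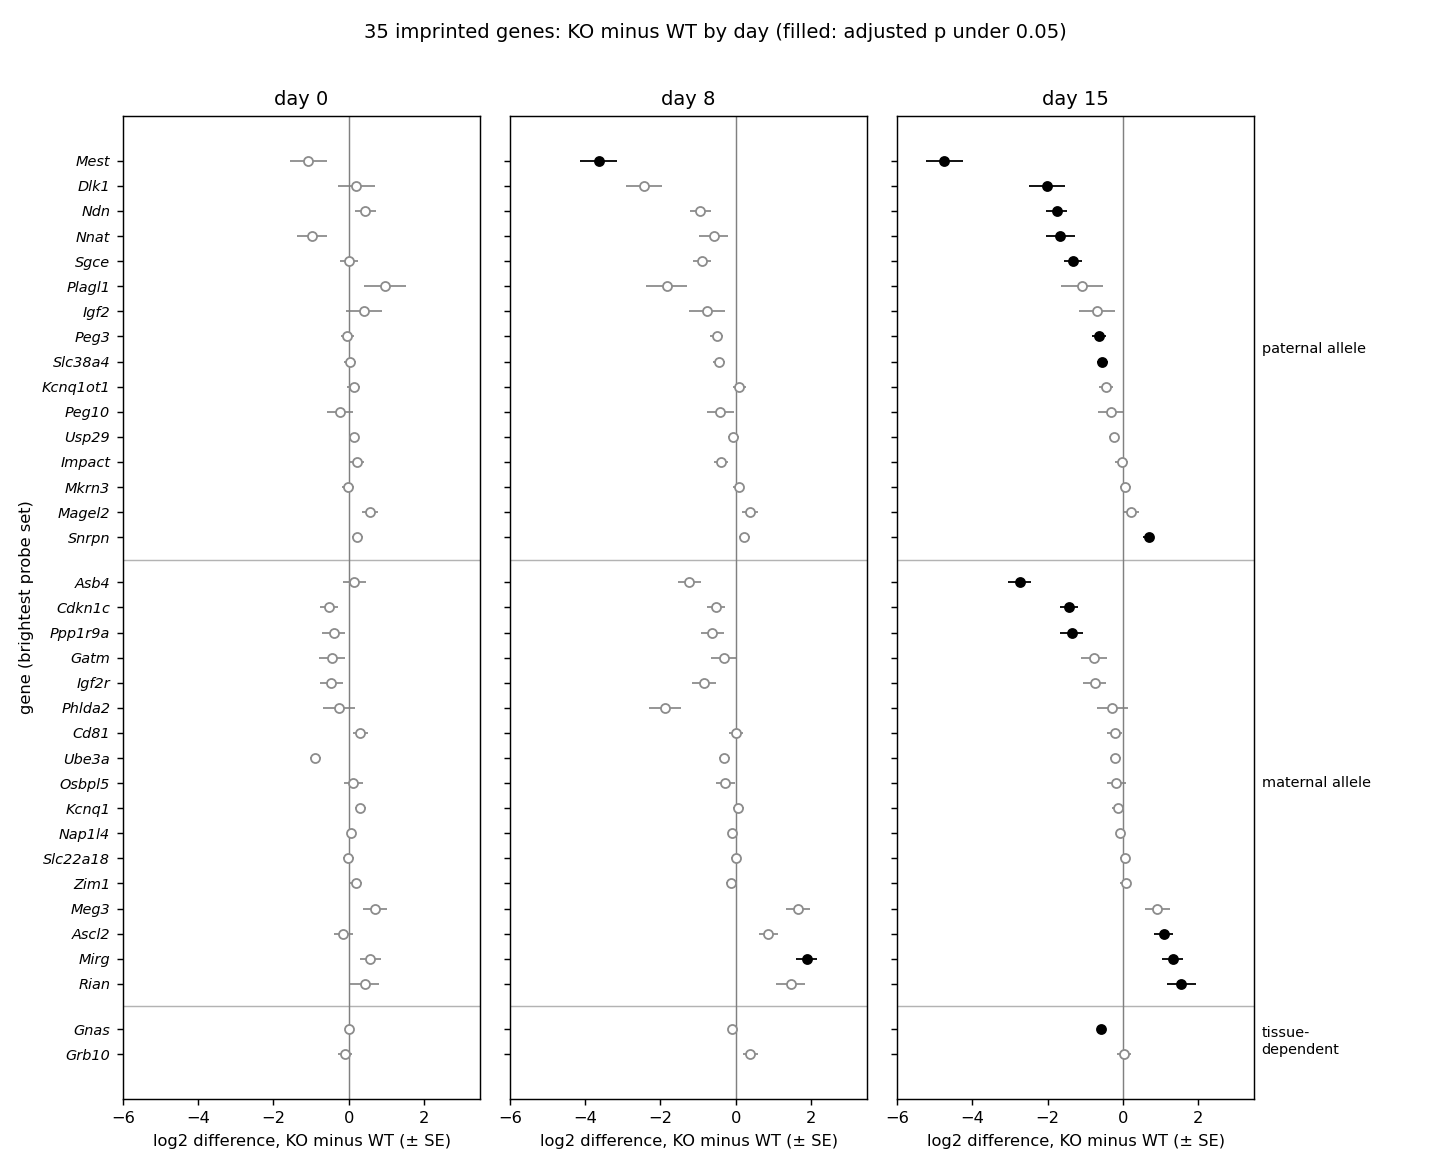
Log2 difference between KO and WT cells (KO minus WT, x axis, with its standard error) of the 35 imprinted genes (rows) at days 0, 8 and 15, grouped by the allele expressed. Filled points passed limma's adjusted p of 0.05: 0 at day 0, 2 at day 8 and 15 at day 15, with *Mest* farthest to the left at days 8 and 15 and *Rian* and *Mirg* to the right.

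By allele, 7 of the 16 paternally expressed genes were lower and 1 higher in KO cells at day 15, with a median log2 difference of -0.59. Of the 17 maternally expressed genes, 3 were lower and 3 higher, with a median of -0.17. Whether the 2 sets of genes differ from each other was not tested. Both KO arrays lay below both WT arrays for 17 of the 35 genes at day 8 and 21 at day 15, where 18.5% and 25.8% of all genes did so. They lay above both WT arrays for 7 genes at day 8 and 6 at day 15, where 27.2% and 33.1% of all genes did so. By the 1.8-fold limit on group means that the study's methods use, 11 members differed at day 8 and 13 at day 15, where 2.98% and 8.65% of all genes did.

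*Mest*, an enzyme-like protein of the hydrolase family that is abundant in embryonic mesoderm, had the largest difference among the members. Its only probe set read 161 and 254 in KO cells and 2167 and 2929 in WT cells at day 8. At day 15 it read 128 and 87.0 in KO cells, against 2919 and 2721 in WT cells. The groups were far apart on both days, and the KO arrays at day 15 were the lowest of the 8 later arrays. The log2 difference was -3.64 at day 8 (SE 0.49, adjusted p = 0.0153 from limma). At day 15 it was -4.74 (SE 0.49, adjusted p = 0.000727 from limma). Within each array, *Mest* stood at percentile 68.5 and 60.7 of all probe sets in KO cells at day 15, against 98.0 and 97.8 in WT cells.

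The day 0 lines were already unequal for *Mest*. KO line F35 read 572 and KO line A49 read 163, while WT lines N12 and N33 both read 644. F35 therefore lay close to the WT lines and A49 stood alone below them. The difference between genotypes at day 0 was -1.08 on the log2 scale and did not pass (adjusted p = 0.604 from limma), and without F35 it was -1.98 (adjusted p = 0.0143 from limma). As a place within the array, A49 stood at percentile 59.7 and the other 3 lines between 82.4 and 84.0. The day 8 call of *Mest* was lost with only the 4 day 8 arrays fitted (adjusted p = 0.074 from limma) and without WT replicate 2 (0.0966) or KO replicate 1 (0.137) or 2 (0.0912) of that day, while the log2 difference stayed between -3.97 and -3.31.

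In the Dlk1-Meg3 cluster of chromosome 12 the paternally expressed *Dlk1* was lower in KO cells at day 15, and the maternally expressed *Mirg* (days 8 and 15) and *Rian* (day 15) were higher. *Dlk1*, a membrane protein with EGF-like repeats that holds back the differentiation of fat cell precursors, read 444 and 762 in KO cells and 1713 and 5746 in WT cells at day 8. At day 15 it read 3433 and 3998 in KO cells, against 17358 and 12843 in WT cells. The KO arrays lay below the WT arrays on both days, and the WT arrays at day 8 were themselves more than 3-fold apart. The log2 difference at day 15 was -2.01 (SE 0.48, adjusted p = 0.0263 from limma), and that at day 8 was -2.43 (adjusted p = 0.0548 from limma). At day 0 the gene was dim in all 4 lines, at 82.3 and 100.45 in KO lines F35 and A49 and 74.5 and 83.1 in WT lines N12 and N33, between percentiles 35.6 and 45.0 of their arrays. A dimmer second probe set of *Dlk1* also passed at day 15 (log2 difference -2.58, adjusted p = 0.00272 from limma).

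The 3 maternally expressed genes of the cluster are long non-coding RNAs on 1 strand, *Meg3*, the small nucleolar RNA host *Rian* and the miRNA host *Mirg*. *Mirg* read 348 and 249 in KO cells and 79.7 and 79.6 in WT cells at day 8, and 289 and 249 in KO cells, against 135 and 85.0 in WT cells, at day 15. It was higher in KO cells at both days, with log2 differences of 1.89 (SE 0.28, adjusted p = 0.0152 from limma) and 1.33 (SE 0.28, adjusted p = 0.0122 from limma). *Rian* read 444 and 470 in KO cells and 154 and 179 in WT cells at day 8, and 643 and 551 in KO cells, against 289 and 141 in WT cells, at day 15. It passed at day 15 (log2 difference 1.56, adjusted p = 0.0294 from limma) and not at day 8 (1.46, adjusted p = 0.125 from limma).

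*Meg3* is read by 11 probe sets, of which 6 were higher in KO cells at day 8 and 7 at day 15, where 0.513% and 6.45% of all probe sets were. These probe sets read 1 gene and are not independent. The brightest of them read 3208 and 2847 in KO cells, against 923 and 1000.5 in WT cells, at day 8, just short of a call (log2 difference 1.65, adjusted p = 0.0518 from limma). At day 15 it read 4342 and 4234 in KO cells, against 3243 and 1582 in WT cells (log2 difference 0.92, adjusted p = 0.103 from limma). In all 11 probe sets both KO arrays lay above both WT arrays on both days, as they did for 25.7% and 30.8% of all probe sets. Likewise 2 of 4 *Rian* probe sets and 1 of 2 *Mirg* probe sets were higher at day 8, and 3 of 4 and 2 of 2 at day 15.

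At day 0 line A49 was the highest for *Meg3* (2580), *Rian* (351) and *Mirg* (158). The other KO line, F35, read 1565, 163 and 90.1 for the same genes, while WT line N12 read 1049, 146 and 73.1 and WT line N33 read 1460, 218 and 87.9. None of the 3 passed between the genotypes at day 0. Line A49 also had the highest day 0 sum of fibroblast marker genes (9443), and the part of feeder RNA in these values was not tested. The calls of *Rian*, *Mirg* and *Dlk1* at day 15 were each lost when KO replicate 1 was left out (adjusted p = 0.152, 0.106 and 0.121 from limma). Without WT replicate 1 the call of *Dlk1* was lost (0.122), without WT replicate 2 those of *Rian* (0.117) and *Mirg* (0.062), and without KO replicate 2 those of *Rian* (0.0759) and *Dlk1* (0.065). That of *Rian* was also lost with only the 4 day 15 arrays fitted (0.0551). The day 8 call of *Mirg* was lost under the same settings as that of *Mest* (adjusted p between 0.0634 and 0.151 from limma).

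**Figure D2:**
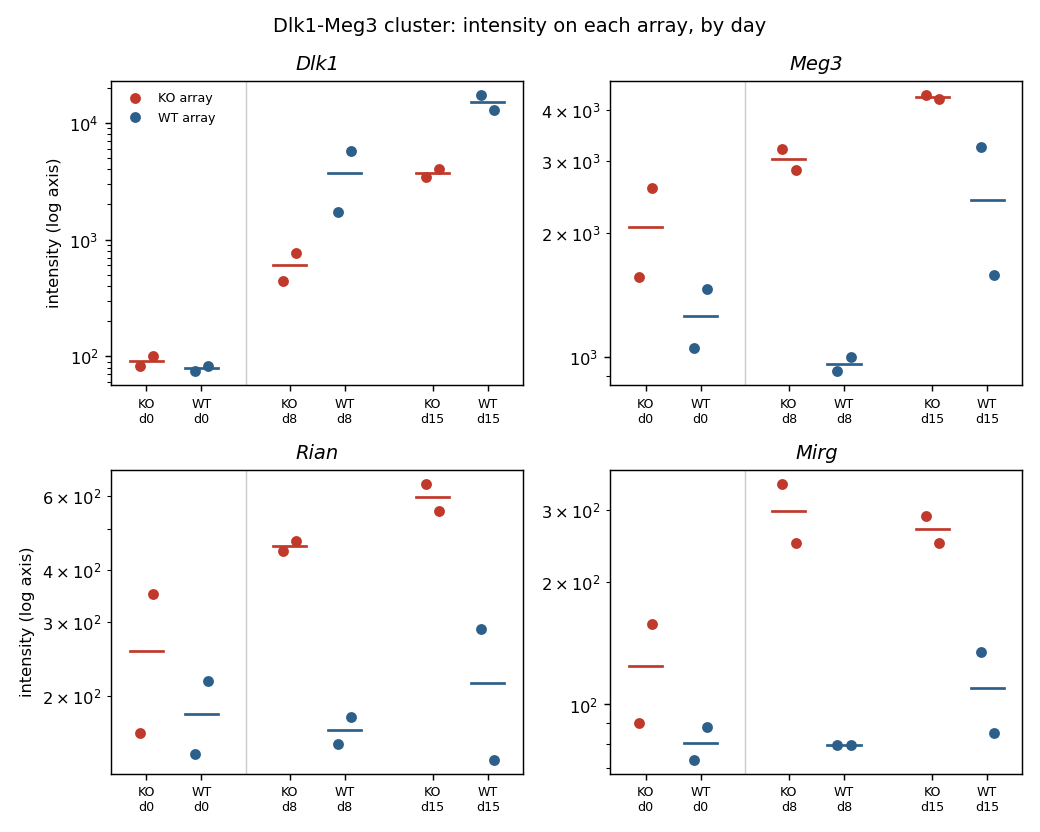
Intensity (y axis, log scale) of *Dlk1*, *Meg3*, *Rian* and *Mirg* on each of the 12 arrays by genotype and day (x axis). Points are arrays, lines are group means, and a grey line parts the day 0 arrays, which may have been scaled apart. *Dlk1* is lower in KO than in WT cells at days 8 and 15, with 603 against 3729 and 3716 against 15100 as means, and *Mirg* is higher, with 299 against 79.6 and 269 against 110.

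In the Peg10-Sgce cluster of chromosome 6, 3 of 4 genes were lower in KO cells at day 15. *Asb4*, a maternally expressed adaptor with ankyrin repeats and a SOCS box, read 180 and 258 in KO cells, against 2091 and 996 in WT cells. Its log2 difference was -2.74 (SE 0.30, adjusted p = 0.000592 from limma), next to that of *Mest* among the members, and its other probe set passed as well. At day 8 it read 147 and 193 in KO cells, against 416 and 380 in WT cells (log2 difference -1.24, adjusted p = 0.0948 from limma). At day 0 it stood between percentiles 19.3 and 26.0 of the arrays, at 51.2 and 57.8 in KO lines and 44.7 and 54.0 in WT lines.

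*Sgce*, the paternally expressed epsilon subunit of the sarcoglycan membrane complex, read 191 and 271 in KO cells, against 552 and 582 in WT cells, at day 15. It was lower by a log2 difference of -1.31 (SE 0.24, adjusted p = 0.005 from limma). Its values at day 8 were 123 and 154 in KO cells, against 202 and 323 in WT cells. *Ppp1r9a*, the actin-binding protein neurabin, read 303 and 360 in KO cells, against 974 and 735 in WT cells, at day 15 (log2 difference -1.36, adjusted p = 0.0182 from limma). Of its 5 probe sets 4 were lower at day 15, where 6.45% of all probe sets were lower. At day 0 it read 585 in KO line F35 and 267 in KO line A49, against 529 and 514 in WT lines N12 and N33, so that A49 stood below the other lines. *Peg10*, a gene derived from a retrotransposon, was dim on every array, between 22.1 and 73.5, and did not pass on any day. The call of *Sgce* was lost without KO replicate 1 of day 15 (adjusted p = 0.0664 from limma), and that of *Ppp1r9a* without the same array (0.128), without KO replicate 2 (0.0547) and without WT replicate 1 (0.116).

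*Cdkn1c*, the cyclin-dependent kinase inhibitor p57 and a growth-restraining gene of the Kcnq1 cluster of chromosome 7, read 981 and 1429 in KO cells, against 3459 and 2977 in WT cells, at day 15. The log2 difference was -1.44 (SE 0.24, adjusted p = 0.00363 from limma). At day 8 it read 811 and 871 in KO cells, against 1090 and 1352 in WT cells, without passing (log2 difference -0.53, adjusted p = 0.355 from limma). *Ascl2*, a transcription factor that trophoblast of the placenta needs, moved the other way and read 113 and 97.1 in KO cells, against 37.9 and 63.9 in WT cells, at day 15. Its log2 difference was 1.09 (SE 0.25, adjusted p = 0.0175 from limma), lost without WT replicate 1 (0.132), KO replicate 1 (0.139) or KO replicate 2 (0.0579) of that day. At day 8 it read 104 and 110 in KO cells, against 46.4 and 74.9 in WT cells, and did not pass (adjusted p = 0.145 from limma). Of the 3 probe sets of *Ascl2* only this brightest one passed at day 15. A dimmer one passed at day 8 (log2 difference 1.15, adjusted p = 0.0443 from limma). At day 0 none of them passed, and the dimmer ones had log2 differences of -0.64 and -0.81.

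*Phlda2*, which restrains growth of the placenta, did not pass between the genotypes on any day. It read 552 and 416 in KO cells, against 2674 and 1163 in WT cells, at day 8 (log2 difference -1.88, adjusted p = 0.0808 from limma). At day 15 the groups overlapped, at 399 and 346 in KO cells and 299 and 676 in WT cells. The other 6 genes of the cluster, among them the potassium channel gene *Kcnq1* and the long non-coding RNA *Kcnq1ot1* that silences its neighbours, did not pass on any day. Their log2 differences at day 15 lay between -0.44 for *Kcnq1ot1* and 0.05 for *Slc22a18*, a membrane transporter.

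In the Snrpn-Ube3a region of chromosome 7 1 gene was lower and 1 higher in KO cells at day 15. *Ndn*, which encodes necdin, a growth-restraining protein of neurons and mesoderm, read 547 and 898 in KO cells, against 2524 and 2216 in WT cells. The log2 difference was -1.75 (SE 0.28, adjusted p = 0.00338 from limma), and 5 of its 8 probe sets were lower. *Snrpn*, a protein of the spliceosome, read 96.9 and 82.3 in KO cells, against 53.5 and 57.6 in WT cells, and was higher by a log2 difference of 0.69 (SE 0.15, adjusted p = 0.0127 from limma). It is read here from a dim probe set, since those that also carry *Snurf* were not read. Its call was lost without WT replicate 1 (0.0816) or KO replicate 1 (0.121) of day 15.

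*Ube3a*, a ubiquitin ligase that is imprinted in neurons, was the member nearest to the threshold at day 0. It read 799.7 and 629 in KO lines F35 and A49, against 1212 and 1418 in WT lines N12 and N33, so that both KO lines lay below both WT lines. The log2 difference was -0.89 (SE 0.14, adjusted p = 0.0652 from limma), against -0.20 at day 15. It passed with an offset of 32, with quantile normalization, or without either WT array of day 8 or KO line F35. *Magel2* and *Mkrn3*, the other members of the region, did not pass on any day.

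The other 4 genes lower in KO cells at day 15 lie outside the clusters described so far. *Nnat*, which encodes neuronatin, a small membrane protein of brain and endocrine cells, read 147 and 227 in KO cells, against 711 and 466 in WT cells (log2 difference -1.66, adjusted p = 0.0231 from limma). *Gnas*, the locus of the stimulatory G protein subunit, is among the brightest members and read 7241 and 7850 in KO cells, against 11480 and 11068 in WT cells. Its replicates lay close together, and a log2 difference of -0.58 passed (SE 0.09, adjusted p = 0.00225 from limma). Of the 5 probe sets of *Gnas* 2 were lower at day 15, where 6.45% of all probe sets were lower. *Peg3*, a paternally expressed zinc finger protein, read 6020 and 7209 in KO cells, against 11002 and 9485 in WT cells (log2 difference -0.63, adjusted p = 0.0449 from limma), and 3 of its 5 probe sets were lower.

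*Slc38a4*, an amino acid transporter, read 697 and 850 in KO cells, against 1180 and 1060 in WT cells (log2 difference -0.54, adjusted p = 0.041 from limma). The calls of *Peg3* and *Slc38a4* were each lost without any 1 of the 4 day 15 arrays and with the replicate block (adjusted p = 0.0612 and 0.0522 from limma). Both were also lost without trend and robust moderation (0.0609 and 0.0588), that of *Peg3* with an offset of 32 (0.0502) or quantile normalization (0.0545) and that of *Slc38a4* with only the 4 day 15 arrays (0.0505). That of *Nnat* was lost without WT replicate 1 (0.136) or KO replicate 1 (0.155). *Nnat* also differed by 2-fold in its means at day 0, at 361 in KO lines and 723 in WT lines, without passing (adjusted p = 0.513 from limma).

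**Figure D3:**
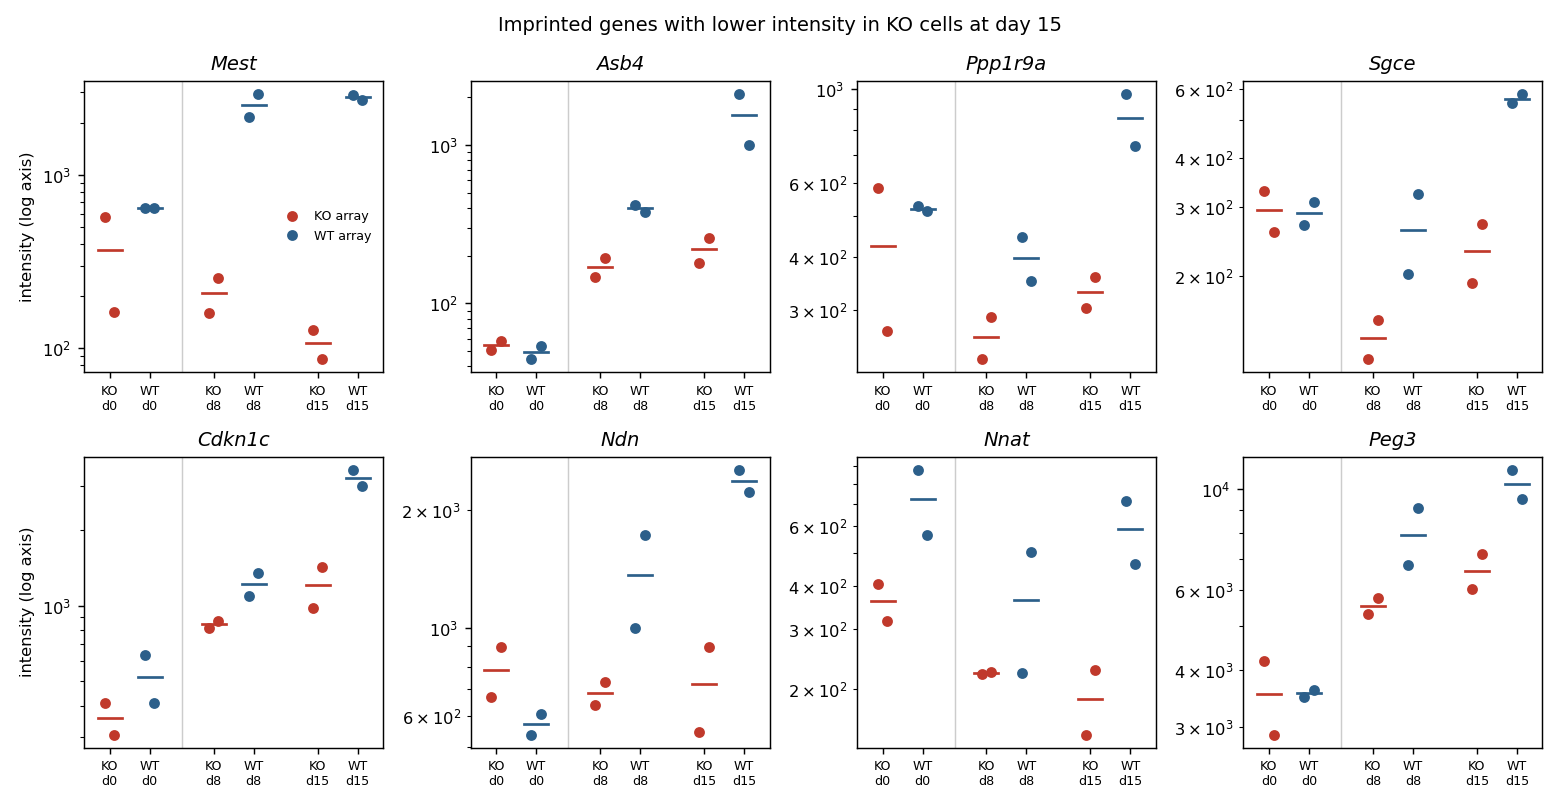
Intensity (y axis, log scale) of 8 imprinted genes that were lower in KO cells at day 15, on each of the 12 arrays by genotype and day (x axis), with points for arrays and lines at group means. At day 15 both KO arrays of every gene lie below both WT arrays, for *Mest* at 128 and 87.0 against 2919 and 2721, and at day 0 line A49 is the lower KO point of every gene but *Asb4* and *Ndn*.

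The growth factor gene *Igf2*, its receptor *Igf2r* and *Plagl1* did not pass between the genotypes on their brightest probe sets. *Igf2* read 11226 and 12774 in KO cells, against 20794 and 17815 in WT cells, at day 15 (log2 difference -0.68, adjusted p = 0.434 from limma). The values at day 8 were 6930 and 8247 in KO cells, against 9971 and 16534 in WT cells. Both KO arrays lay below both WT arrays on both days. The WT values at day 15 are close to the highest intensity on those arrays, 21493 and 22080. A dimmer probe set of *Igf2* read 58.8 and 66.5 in KO cells, against 264 and 171 in WT cells, at day 15 and passed (log2 difference -1.76, adjusted p = 0.00957 from limma).

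*Igf2* was also the member whose WT lines differed most at day 0, at 2649 in N12 and 778 in N33, with KO lines F35 and A49 at 2332 and 1543. *Igf2r*, the receptor that clears IGF2, read 2678 and 3522 in KO cells, against 5870 and 4529 in WT cells, at day 15 and did not pass (log2 difference -0.75, adjusted p = 0.161 from limma). *Plagl1*, a paternally expressed zinc finger factor that activates other imprinted genes, read 4836 and 6433 in KO cells, against 13339 and 10539 in WT cells, at day 15 on its brightest probe set (log2 difference -1.09, adjusted p = 0.259 from limma). That probe set is of a type (x_at) whose probes can match other transcripts, and a second one read 281 and 428 in KO cells, against 2020 and 1235 in WT cells, and passed (log2 difference -2.19, adjusted p = 0.0299 from limma). The 2 WT arrays of *Plagl1* at day 8 were 2249 and 9832, against 1118 and 1545 in KO cells.

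The remaining members did not pass on any day on their brightest probe sets. *Grb10*, an adaptor that dampens insulin and IGF signaling, read 6064 and 6190 in KO cells, against 6645 and 5401 in WT cells, at day 15. *Impact*, a translation regulator, *Usp29*, a deubiquitinase gene beside *Peg3*, and *Zim1*, its zinc finger neighbour, had day 15 log2 differences of -0.03, -0.22 and 0.07. A dimmer probe set of *Usp29* did pass at day 15, at 18.0 and 20.02 in KO cells, against 25.9 and 26.8 in WT cells (log2 difference -0.48, adjusted p = 0.0289 from limma). *Gatm*, an enzyme of creatine synthesis, was dim, at 25.5 and 27.7 in KO cells and 73.7 and 27.7 in WT cells, so that 1 WT array stood alone. A p that misses the threshold does not show that these genes were equal.

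Each day 0 array is 1 line, and few members set a line apart. Line A49 lay more than 1.8-fold below each of the other 3 lines for *Mest* and *Ppp1r9a*, 2 of 35 genes, where 0.236% of all genes did so. Line N33 did so for *Igf2*, where 0.066% of all genes did, and lines F35 and N12 for 0 of the 35, where 0.022% and 0.055% did. By the same limit on group means, 3 members differed between the genotypes at day 0, where 0.83% of all genes did. *Ube3a* and *Nnat* were lower in KO lines. *Plagl1* was higher on its x_at probe set alone, with a ratio of KO to WT means of 1.99, against 1.03 and 1.20 on its other probe sets. Without KO line F35 the count was 9 and without A49 it was 0.

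**Figure D4:**
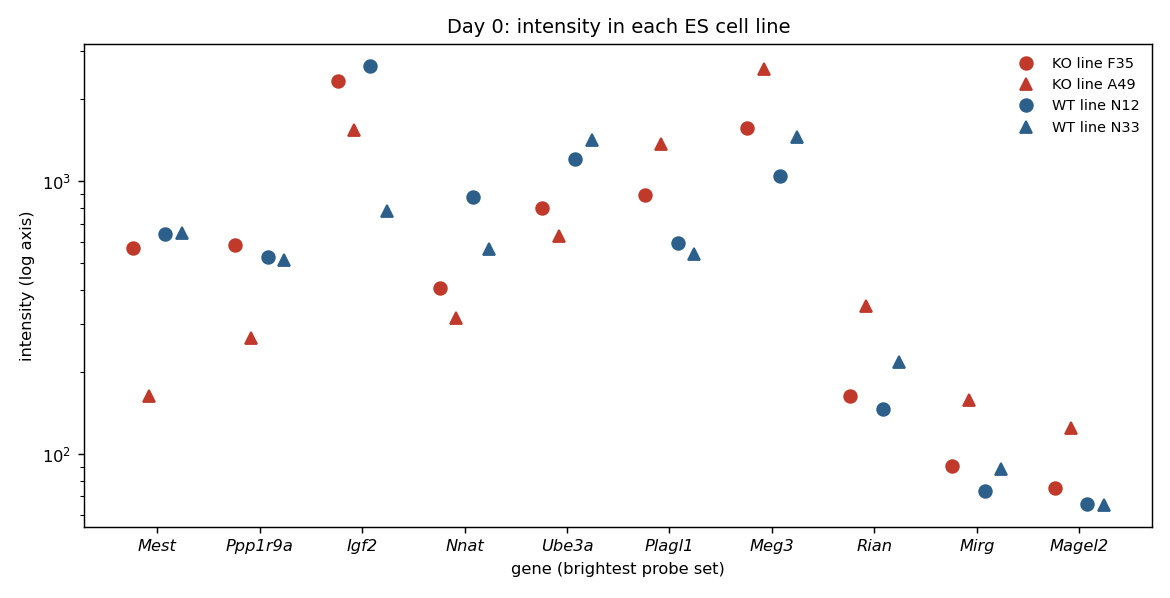
Intensity (y axis, log scale) of 10 imprinted genes (x axis) in KO lines F35 and A49 and WT lines N12 and N33 at day 0, 1 array per line. A49 is the lowest line for *Mest* (163) and *Ppp1r9a* (267) and the highest for *Meg3* (2580), *Rian* (351), *Mirg* (158) and *Magel2* (125), and N33 is the lowest for *Igf2* (778).

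In WT cells 9 of the 35 genes differed between day 15 and day 8, 7 higher and 2 lower at day 15 (21% of all genes passed, 9.66% higher and 11.3% lower). The 7 are *Dlk1*, *Asb4*, *Cdkn1c*, *Meg3*, *Sgce*, *Ppp1r9a* and *Gnas*, of which all but *Meg3* were also lower in KO than in WT cells at day 15, a comparison that shares the WT day 15 arrays. *Dlk1* changed most, with a log2 change of 2.25 (adjusted p = 0.0134 from limma), followed by *Asb4* at 1.86 (adjusted p = 0.00304 from limma) and *Cdkn1c* at 1.40 (adjusted p = 0.00333 from limma). The log2 changes of the other 4 were 1.24 for *Meg3*, 1.15 for *Sgce*, 1.10 for *Ppp1r9a* and 0.64 for *Gnas*. *Phlda2* and *Snrpn* were lower at day 15, by log2 changes of -1.97 (adjusted p = 0.0134 from limma) and -0.51 (adjusted p = 0.0413 from limma). Without WT replicate 1 of day 15 the calls of *Dlk1*, *Meg3*, *Ppp1r9a*, *Phlda2* and *Snrpn* were lost. Those of *Meg3* and *Ppp1r9a* were also lost on leaving out either WT array of day 8, and that of *Phlda2* without WT replicate 1 of day 8. *Snrpn* lost its call on leaving out any 1 WT array of either day. It also lost it with an offset of 32, quantile normalization, the replicate block or only the arrays compared.

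In KO cells 0 of the 35 genes passed between day 15 and day 8, where 0.0275% of all genes passed. At an unadjusted p under 0.05 there were 4 members, with 10.8% of all probe sets. *Dlk1* nevertheless read 3433 and 3998 at day 15, against 444 and 762 at day 8, a log2 change of 2.67 (SE 0.48, adjusted p = 0.153 from limma). On this probe set of *Dlk1*, its brightest, the difference between the genotypes in the change was 0.42 (SE 0.68, adjusted p = 0.879 from limma). The dimmer probe set of *Dlk1* went the other way, with log2 changes of 0.90 in KO cells and 2.43 in WT cells. Its difference was -1.52 (SE 0.54, adjusted p = 0.293 from limma). On the brightest probe sets no member passed that test of the difference, where 0.66% of all genes passed. Of these members 4 were at an unadjusted p under 0.05, with 12% of all probe sets. The largest values were 1.60 for *Phlda2* (adjusted p = 0.32 from limma) and -1.51 for *Asb4* (adjusted p = 0.196 from limma), and *Asb4* passed without WT replicate 2 of day 15 (adjusted p = 0.00913 from limma). *Mest* was -0.94 in KO cells and 0.16 in WT cells, a difference of -1.10 (adjusted p = 0.596 from limma).

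**Figure D5:**
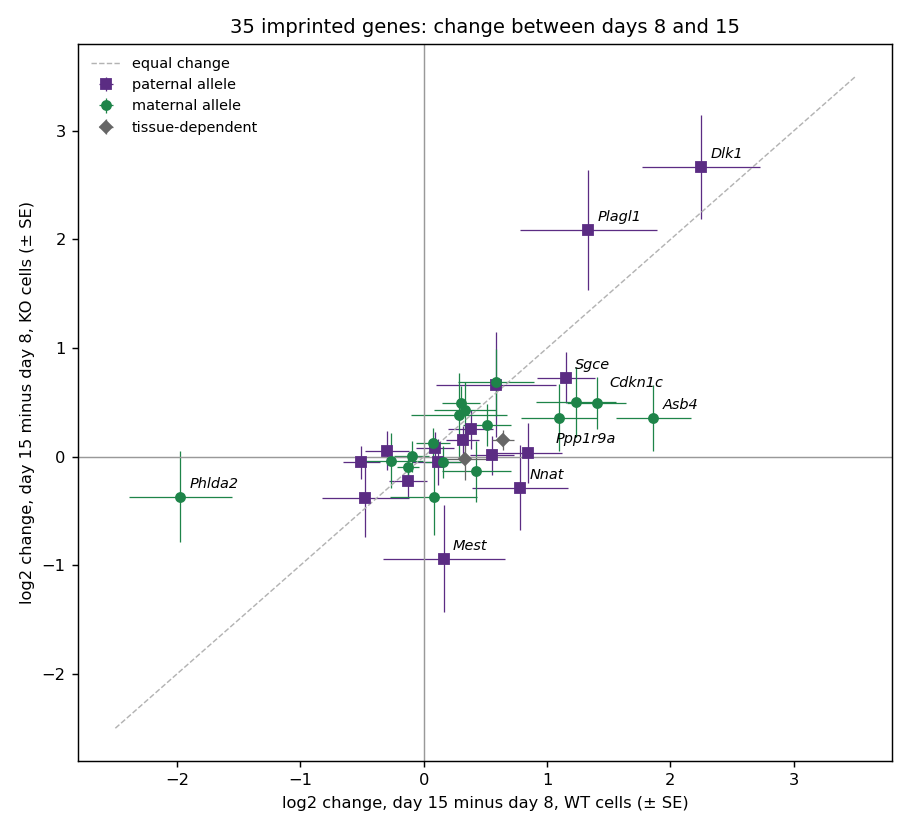
Log2 change between day 15 and day 8 of the 35 imprinted genes in KO cells (y axis) against WT cells (x axis), with standard errors, by the allele expressed. Each gene is shown by its brightest probe set. *Dlk1* lies near the line of equal change at 2.67 and 2.25. *Asb4* lies below it at 0.35 and 1.86, and *Phlda2* lies to the left at -0.37 and -1.97.

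Marker genes of several cell types, in 6 lists, also differed at day 15. Over all genes, 8.77% were higher and 8.31% lower in KO cells on that day. In KO cells 10 of 12 genes of pluripotent cells were higher and 0 lower, with summed intensities of 20350 and 19190 in KO cells, against 2790 and 8275 in WT cells. Of 12 fibroblast genes 8 were lower, with sums of 11550 and 16690 in KO cells, against 82820 and 62140 in WT cells, and of 11 visceral endoderm genes 7 were lower, with sums of 9589 and 7978 in KO cells, against 21080 and 41010 in WT cells. Of 11 neural genes 5 were higher and 2 lower, with sums of 5011 and 4834 in KO cells, against 4738 and 3450 in WT cells. Of 12 muscle genes 1 was higher, and of 6 trophoblast genes 1 was higher and 1 lower. At day 8 the fibroblast sums were 3926 and 4056 in KO cells and 7313 and 27760 in WT cells. Among the members lower in KO cells at day 15, WT replicate 2, the higher one, was also the higher for all but *Ppp1r9a* and *Asb4*. Other members went both ways, with WT replicate 2 the higher for *Plagl1* and WT replicate 1 the higher for *Phlda2*. The part of these cells in the differences of the imprinted genes was not tested.

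The proteins that keep or set imprints were examined as a list of 20 genes, of which 19 are measured. At day 15, 6 were higher in KO cells and 1 lower, with a median log2 difference of 0.11, where 8.77% of all genes were higher and 8.31% lower. *Dnmt3b*, a methyltransferase that sets new marks, read 4003 and 3145 in KO cells, against 417 and 546 in WT cells (log2 difference 2.90, adjusted p = 0.000182 from limma). *Dnmt3l*, its cofactor, was higher at day 15 (log2 difference 2.73, adjusted p = 0.000162 from limma). It was also the only one of the 19 to pass at day 8 (log2 difference 1.58, adjusted p = 0.0158 from limma), where 1.54% of all genes passed. *Zfp57*, whose core motif is capitalized in the sequences above, read 248 and 195 in KO cells, against 117 and 124 in WT cells, at day 15 (log2 difference 0.87, adjusted p = 0.00553 from limma).

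*Tet1*, an enzyme that oxidizes methylcytosine, and *Dppa3*, which protects maternal methylation in the zygote, were higher too (log2 differences 1.06 and 0.97), as was the Polycomb subunit *Eed* (0.89). *Dnmt3a* was lower at day 15 (log2 difference -0.66, adjusted p = 0.039 from limma). At day 0 none of the 19 passed. In WT cells 7 of the 19 were lower and 2 higher at day 15 than at day 8, where 11.3% and 9.66% of all genes were. In KO cells 0 passed between these days, where 0.0275% of all genes did. The difference between the genotypes in the change passed for *Dnmt3b* alone.

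Of the partners of IGF2 and targets of PLAGL1, 15 of 16 listed genes are measured. At day 15, 7 were lower and 2 higher in KO cells, with a median log2 difference of -0.48, where 8.31% of all genes were lower and 8.77% higher. *Igf1*, a second ligand of the IGF receptor, read 52.2 and 72.5 in KO cells, against 450 and 317 in WT cells (log2 difference -2.62, adjusted p = 0.000504 from limma). The binding proteins *Igfbp4* and *Igfbp5* were lower by log2 differences of -1.32 and -1.94. *Igf2bp3*, which binds *Igf2* mRNA, was lower (-0.84, adjusted p = 0.0163 from limma), while its relative *Igf2bp1* (0.55) and *Irs2*, a docking protein of the insulin and IGF receptors (0.46), were the 2 that were higher. At day 8 *Igfbp4* and *Hmga2*, a chromatin protein of embryonic cells, were lower, with log2 differences of -0.84 and -1.04 (adjusted p = 0.0315 and 0.025 from limma). Over all genes, 0.77% were lower on that day.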

How the data were processed

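The authors deposited 1 linear intensity for each probe set and array, scaled by them before deposit. MAS5 stands in the submitters' processing notes, and no source used here gives its version or settings. The 4 arrays of day 0 may have been scaled apart from the other 8, judged by their medians alone (114 to 117, against 50.6 to 53.1). For this reason day 0 was not tested against later days. An array has no read depth, and 2 arrays a group limit the precision.

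The 64 control probe sets of the manufacturer were left out. Of 45037 probe sets tested, 34945 carry 1 gene symbol, 932 several and 9160 none. The values of a gene are those of its brightest probe set of 1 symbol (highest mean log2 intensity over the 12 arrays), and 8 probe sets that a member shares with another gene were not read. After values under 1 were raised to 1, log2 intensities were fitted with limma 3.58.1 (statmod 1.5.0, R 4.3.3), with 1 mean for each of 6 groups, an intensity trend and robust moderation. P-values are two-sided, with Benjamini-Hochberg adjustment over every tested probe set and a threshold of 0.05. The 1.8-fold limit was applied to ratios of linear group means, without a test. The fit was tested on simulated data. Alleles and clusters were assigned from general knowledge, and promoter and miRNA sequences come from RefSeq. Python 3.11.15, pandas 2.3.3 and matplotlib 3.10.9 were used.

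The members, lists and tests were chosen with earlier results of these data known. Given array by array are the members that passed in any comparison or whose day 0 arrays differ by over 3-fold, the others serving as examples of their cluster. Of each list up to 5 genes that passed are named, by size of the difference, and *Zfp57*, *Dnmt3a*, *Igf2bp1* and *Irs2* were named beyond this after their values were seen. *Plagl1*, *Ube3a*, *Igf2r*, *Grb10* and *Gatm* are such examples. Alternatives were an offset of 32, quantile normalization, median centring, a replicate block, an unpaired 2-group t-test and a fit to the arrays compared alone. Further ones were a fit to brighter probe sets, a fit with neither trend nor robust moderation and the mean over a gene's probe sets. Fold limits of 1.5 and 2 were also used, and each array was left out in turn.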

Additional observations from a re-analysis of the deposited data

How the results depend on the processing

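Direction was followed for the member genes that passed in a comparison or had the larger log2 differences, and none of these reversed. Smaller differences, and the mean over a gene's probe sets, were not followed for direction. For member genes that passed between KO and WT cells, the count at day 0 (0) was 1 with an offset of 32 or quantile normalization, *Ube3a*, and 0 to 3 without each array in turn. At day 8 (2) it was 4 without trend or robust moderation, 4 with brighter probe sets alone, 5 with the mean over a gene's probe sets, 0 with only the arrays of the day, and 0 to 10 without each array in turn, 10 without WT day 8 replicate 1 and 0 without WT replicate 2 or either KO replicate of that day. At day 15 (15) it was 5 to 18 without each array in turn, 5 without KO replicate 1, 9 without KO replicate 2 and 9 without WT replicate 1. The calls of *Mest*, *Asb4*, *Cdkn1c*, *Ndn* and *Gnas* at day 15 remained under every limma alternative. Between day 15 and day 8 the count was 4 to 13 in WT cells (9), 4 of them without WT day 15 replicate 1, and 0 to 2 in KO cells (0) and for the difference between genotypes (0).

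An unpaired 2-group t-test passed 0 member genes and 0 probe sets at days 8 and 15 and between these days in WT and in KO cells. At day 0 it passed 0 member genes and 2 probe sets. The paper names a t-test in general and no test for the arrays. With 2 arrays a group, few probe sets could pass this unpaired test after adjustment. Without adjustment it had 5 member genes under 0.05 at day 0, 6 at day 8, 10 at day 15, and 3 in each genotype between the later days, where 8.37%, 8.58%, 14.5%, 10.6% (WT) and 10.4% (KO) of all probe sets were.

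Over all probe sets, 22 passed at day 0, and 293 with an offset of 32, 115 with quantile normalization, 34 with centring, 13 without trend or robust moderation, 0 with brighter probe sets alone, 1 with only the arrays of the day and 0 to 673 without each array. At day 8, 508 passed, 0 with only the arrays of the day and 5 to 2625 without each array. At day 15, 5807 passed, and 1720 to 8018 without each array. Between day 15 and day 8, 7227 passed in WT cells (3598 to 9202 without each array). In KO cells 9 passed, and 14 with quantile normalization, 2 with centring, 5 without trend or robust moderation, 2 with brighter probe sets alone, 3 with only the arrays compared and 0 to 330 without each array. For the difference between genotypes 190 passed, and 124 with quantile normalization, 89 with brighter probe sets alone, 29 with only the arrays compared and 14 to 1730 without each array. By the 1.8-fold limit, member genes numbered 3 at day 0 (7 at 1.5-fold, 1 at 2-fold, 0 to 9 without each array), 11 at day 8 (8 to 14) and 13 at day 15 (13 to 15).

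Samples of both genotypes share replicate numbers, and the correlation of their deviations was low (0.0111 at day 0, 0.0442 at day 8 and -0.0611 at day 15). Over brighter probe sets it was 0.0129, 0.0957 and -0.144. With 2 arrays a group this cannot exclude shared handling, and the main fit did not pair the samples. With the replicate block 3 probe sets passed at day 0, 511 at day 8 and 5590 at day 15, and 0, 3 and 13 member genes. At days 8 and 15 replicates of WT cells stood farther apart than those of KO cells, with gaps of over 1 on the log2 scale for 6 of 35 members at day 8 and 5 at day 15, against 0 in KO cells on both days. At day 0 the KO lines had 3 such members and the WT lines 1.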

Other observations

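Other imprinted genes were examined as a list of 35 outside the members, of which 28 are measured. At day 15, 5 were lower and 0 higher in KO cells, with a median log2 difference of -0.13, where 8.31% of all genes were lower. *Klf14*, a zinc finger gene near *Mest*, read 159 and 141 in KO cells, against 441 and 361 in WT cells (log2 difference -1.41, adjusted p = 0.00252 from limma). *Copg2*, which overlaps the end of *Mest* on the opposite strand, read 144 and 188 in KO cells, against 276 and 309 in WT cells (log2 difference -0.83, adjusted p = 0.0209 from limma). At day 0 *Copg2* read 579 in KO line F35 and 359 in KO line A49, against 579 and 582 in WT lines N12 and N33, the line order seen for *Mest*. The other 3 were *Qpct* (log2 difference -1.07), *Pon2* of the Peg10-Sgce cluster (-0.72) and *Trpm5*, a channel gene of the Kcnq1 cluster (-0.61). At days 0 and 8 none of the 28 passed.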
